A study of Mus musculus with 6 samples.

Results

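The transcripts described here are 10 genes that promote or restrain mineral deposition in the artery wall, chosen by symbol out of 25939 listed genes. The choice was made with earlier results of these data known. They are Spp1, Mgp, Ank, Enpp1, Alpl, Runx2, Msx2, Sox9, Slc20a1 and Tnfrsf11b, and all 10 were found once in each table. RNA sequencing was done on vascular smooth muscle cells cultured from mouse aorta, with 3 Control libraries and 3 libraries of cells treated with TMAO (trimethylamine N-oxide, a metabolite that the liver makes from a product of gut bacteria) for 48 h. The comparison asks how TMAO changes these cells. The dose, the vehicle, the strain, sex and age of the mice, and whether replicates came from separate cultures or animals are not stated in these sources, so p-values measure only the spread between these libraries, which may be technical.

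Arterial calcification is the deposition of calcium phosphate in the vessel wall, and it is held in check by secreted inhibitors. Inorganic pyrophosphate blocks crystal growth. The enzyme ENPP1 makes it outside the cell, the membrane protein ANK exports it or its precursor from the cell, and the phosphatase encoded by Alpl destroys it. Matrix Gla protein and osteopontin bind mineral directly, and smooth muscle cells that mineralize can take on transcription factors of bone and cartilage.

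Of the 10 genes, 8 reached the level required for testing, which was at least 1 FPKM in at least 3 libraries. FPKM is fragments counted per kilobase of exon, scaled to a total for each library. Spp1 fell by 22.2% after TMAO and the other 7 did not pass the test, while Alpl and Msx2 were too low to be tested. Over all 11062 genes tested, 0.108% were lower and 0.0723% higher in limma at a p of 0.05 adjusted by the Benjamini-Hochberg method over all of them. Those were 8 higher and 12 lower genes, and 7 and 18 under quantile normalization. Because the 10 genes were chosen with earlier results known, the call of Spp1 is no test of the set against these shares. The 8 tested genes had 4 log2 fold changes above 0 and 4 below 0, where 60.0% of all genes tested were above 0. The median of the 8 was 0.0020 against 0.02 for all genes tested.

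The order of the levels, from the mean over the 6 libraries, ran from Mgp (3564 FPKM) and Spp1 (1586 FPKM) through Ank (25.1 FPKM), Slc20a1 (11.0 FPKM), Sox9 (6.13 FPKM), Tnfrsf11b (2.38 FPKM), Runx2 (1.95 FPKM) and Enpp1 (1.37 FPKM) to Msx2 (0.353 FPKM) and Alpl (0.0160 FPKM). Mgp ranked 12 and Spp1 ranked 31 among all listed genes. The ranges over the 6 libraries overlapped between Tnfrsf11b and Runx2, and they did not overlap between any other neighbours in this order. Transcripts of both mineral-binding proteins therefore stood far above the pyrophosphate genes and the transcription factors.

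**Figure D1:**
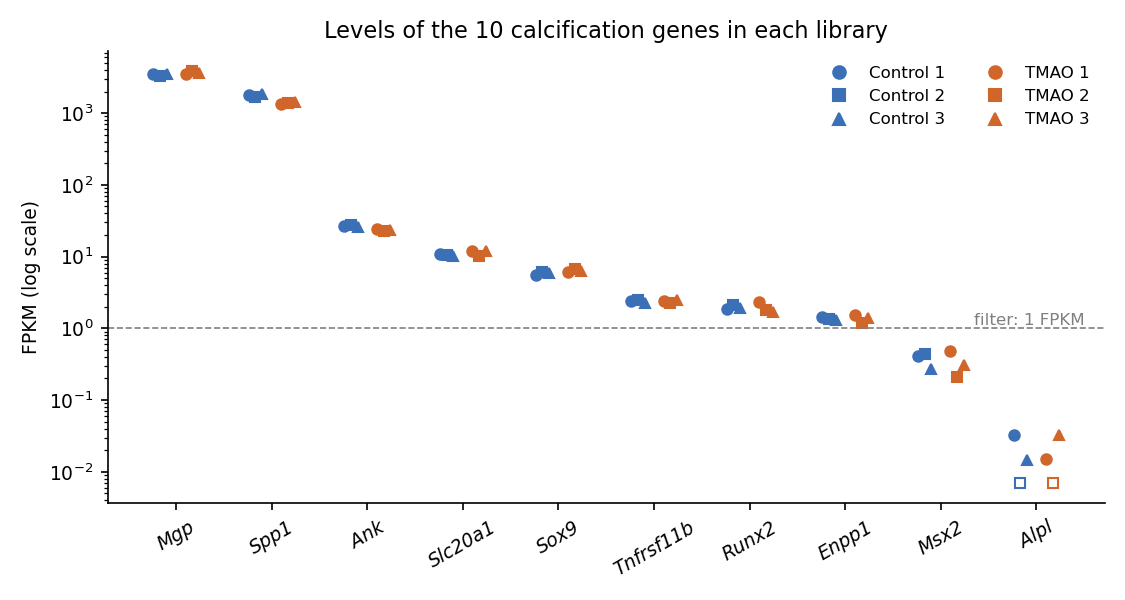
FPKM on a log scale for each calcification gene in the 6 libraries, in order of mean level. Colour gives the group and the marker shape the replicate number. Open symbols for Alpl stand for libraries listed at 0, drawn at the foot of the plot, and the dashed line is the 1 FPKM needed for testing.

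Spp1 (ENSMUSG00000029304, chromosome 5, 104435118 to 104441050, plus strand of mm10) encodes osteopontin, a secreted, acidic phosphoprotein that binds hydroxyapatite and signals through integrins and CD44. Its level was 1819, 1706 and 1826 FPKM in Control 1 to 3 and 1363, 1392 and 1408 FPKM in the TMAO libraries. Every TMAO library lay below every Control library. The mean went from 1784 ± 67.3 FPKM (SD, n = 3) to 1388 ± 22.7 FPKM, a log2 fold change of -0.36 with a 95% interval of -0.46 to -0.27 and an adjusted p = 0.00876 by limma. It was the gene with rank 6 by p, while 272 of the genes tested had a change at least as large in size.

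Each Spp1 value rested on 34793 to 50569 reads, and the entry Gm42793 on the same strand covers 18.8% of its exon bases. Counting error alone was 0.466% of the mean in Control, and the spread between Control libraries was 3.77%. Of the total reads that the FPKM values imply, Spp1 took 0.300%, 0.281% and 0.301% in Control 1 to 3 and 0.225%, 0.229% and 0.232% in the TMAO libraries. The call was lost without Control replicate 3 (log2 fold change -0.34, adjusted p = 0.0575 by limma) and when no filter on low values was applied (adjusted p = 0.0813 by limma). In RNA from a whole culture, fewer cells expressing a gene and less RNA per cell cannot be told apart.

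The sequence upstream of Spp1 is shown because the transcription factors among the 10 genes include Runx2 and Sox9, whose families bind short motifs. It covers the 250 bases before the RefSeq start of Spp1, chr5:104434861-104435110 on the plus strand of GRCm38.p6, the same assembly as mm10. Capitals mark a match to ACCACA, a core of RUNX sites, and a match to CTTTGT, the reverse complement of the SOX core ACAAAG.
Spp1 promoter: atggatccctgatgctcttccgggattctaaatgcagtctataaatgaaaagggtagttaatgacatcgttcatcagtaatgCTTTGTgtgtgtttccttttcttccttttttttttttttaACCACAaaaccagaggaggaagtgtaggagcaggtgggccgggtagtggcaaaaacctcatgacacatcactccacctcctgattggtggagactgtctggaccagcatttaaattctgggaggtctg
The RUNX match began 128 bases and the SOX match 168 bases before the start. TAATTG, a core bound by MSX proteins, was also searched on both strands, and these letters were not in this window. The motifs searched do not overlap one another here. Of 32851 RefSeq promoter windows of this length, 14.0% held the RUNX core on either strand, 16.5% the SOX core and 7.17% the MSX core.

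RefSeq windows were held for 7 of the 10 genes, all but Mgp, Sox9 and Tnfrsf11b, and the window nearest to the annotated start was used. The RUNX core was found in 4 of these 7 (Spp1, Enpp1, Slc20a1 and Runx2 itself), the SOX core in 2 and the MSX core in 0. The RefSeq start of Runx2 lies 170 bases and that of Msx2 294 bases inside the annotated gene. The Runx2 match and the whole Msx2 window therefore lie within the annotated genes. Upstream stretches of 30 bases around the RUNX core, in capitals, are set side by side for Spp1 (chr5:104434971-104435000, plus strand), Enpp1 (chr10:24712286-24712315, minus strand) and Slc20a1 (chr2:129198684-129198713, plus strand, where it stands as the reverse complement TGTGGT).
Spp1: tttttttttttaACCACAaaaccagaggag
Enpp1: cactctttgcagACCACAcagcgattccag
Slc20a1: gcccgaccagccTGTGGTtgcgtcacatcg
Spp1 fell, and the log2 fold changes of Enpp1 (0.0081) and Slc20a1 (0.11) did not pass the test. A match describes the sequence and is not evidence of binding.

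Mgp (ENSMUSG00000030218, chromosome 6, 136872435 to 136875823, minus strand) encodes matrix Gla protein, a small vitamin K-dependent inhibitor of arterial calcification. It stood at 3493, 3297 and 3552 FPKM in Control 1 to 3 and at 3551, 3830.0 and 3658 FPKM in the TMAO libraries. TMAO 1 lay just under Control 3, so the groups overlapped. The log2 fold change was 0.09 with a 95% interval of -0.0088 to 0.20 and an adjusted p = 0.425 by limma.

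Set against each other, Mgp and Spp1 gave values that did not overlap between the groups, as was already so for Spp1 alone. The ratio of their FPKM values was 1.92, 1.93 and 1.95 in Control 1 to 3 and 2.60, 2.75 and 2.60 in the TMAO libraries. Its mean was 1.93 ± 0.0127 (SD, n = 3) in Control and 2.65 ± 0.0874 in TMAO. The library total cancels from this ratio, and over the Control libraries its SD was 0.657% of the mean, beside 3.77% for Spp1 and 3.88% for Mgp alone. The ratio was not as tight in TMAO, with an SD of 0.0874 around a mean of 2.65. There the SD was 1.64% of the mean for Spp1 and 3.83% for Mgp alone. This ratio was picked for display after the values of 3 such ratios were seen, none of them planned, and it was not tested. Among the other ratios, Ank to Slc20a1 also had groups that did not overlap, at 2.54 ± 0.0846 (SD, n = 3) in Control and 2.04 ± 0.134 in TMAO. The groups did not overlap for Ank alone either. Ank to Enpp1 overlapped, at 19.7 ± 1.11 and 17.0 ± 1.55.

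**Figure D2:**
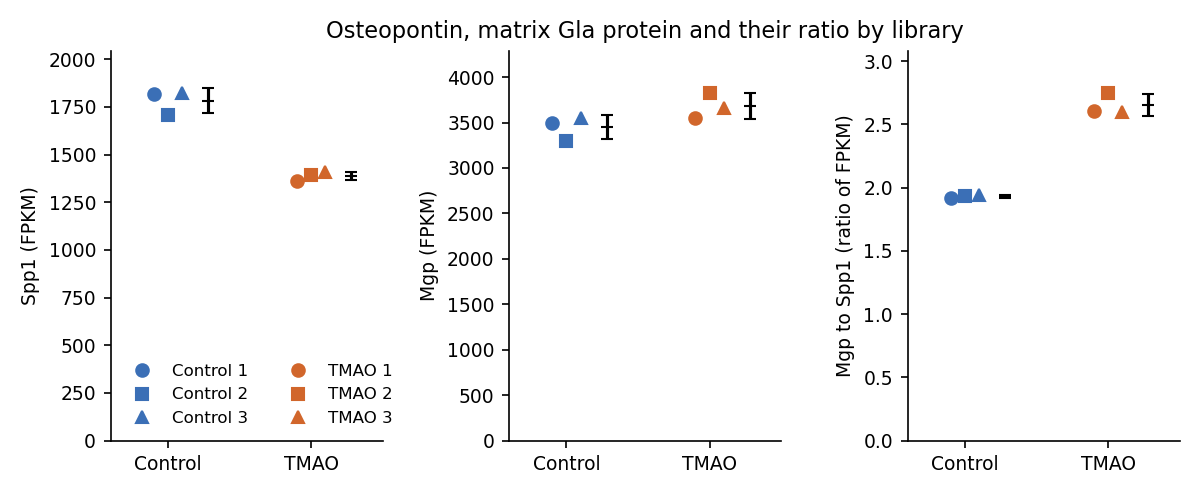
FPKM of Spp1 and of Mgp and the ratio of Mgp to Spp1, by group. Coloured points are the libraries and black bars the mean and SD of 3 libraries; the Spp1 points of TMAO lie between 1363 and 1408 FPKM, under all Control points.

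The pyrophosphate genes were led by Ank (ENSMUSG00000022265, chromosome 15, 27466677 to 27594909, plus strand). It stood at 26.7, 27.8 and 26.2 FPKM in Control and at 24.2, 22.6 and 23.2 FPKM in TMAO. All 3 TMAO libraries were under all 3 Control libraries. The mean was 26.9 ± 0.845 FPKM (SD, n = 3) in Control and 23.3 ± 0.820 FPKM in TMAO, a log2 fold change of -0.20 with a 95% interval of -0.31 to -0.09. It did not pass over all genes (adjusted p = 0.152 by limma), and the adjusted p ranged from 0.0964 to 0.428 over the alternatives.

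Enpp1 (chromosome 10, 24637914 to 24712159, minus strand), the enzyme that makes pyrophosphate outside the cell, stood at 1.45, 1.35 and 1.30 FPKM in Control and 1.53, 1.20 and 1.41 FPKM in TMAO. The values of the groups were interleaved. Its log2 fold change was 0.0081 with a 95% interval of -0.19 to 0.20 (adjusted p = 0.978 by limma), and the sign changed with scaling, to -0.05 under quantile normalization. Each value rested on 197 to 260 reads, and the spread in Control (5.51%) was no wider than counting error (6.76%), while in TMAO it was 12.1% against 6.67%.

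Alpl (chromosome 4, 137741733 to 137796384, minus strand), the tissue-nonspecific alkaline phosphatase that breaks pyrophosphate down, was at the limit of detection. Its reads numbered 2, 0 and 1 in Control 1 to 3 and 1, 0 and 2 in the TMAO libraries. A count of 0 allows up to 3 reads, or 0.0443 to 0.0496 FPKM depending on the library, counting error only. No fold change is given, because both groups lie under that limit. The phosphatase typical of mineralizing cells was thus not detectable above that limit in either group.

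Slc20a1 (chromosome 2, 129198764 to 129211616, plus strand), a sodium-dependent phosphate importer also called Pit-1, stood at 10.9, 10.6 and 10.3 FPKM in Control and 12.1, 10.3 and 12.1 FPKM in TMAO. TMAO 2 lay within the Control values and TMAO 1 and TMAO 3 above them. The log2 fold change was 0.11 with a 95% interval of -0.05 to 0.26 (adjusted p = 0.565 by limma). Exons of 9830144P21Rik and Gm4430 on the opposite strand cover 13.1% of its exon bases, and the strand setting of the counting is not given in the sources used here.

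Among the transcription factors Sox9 was the most abundant. Sox9 (chromosome 11, 112782224 to 112787760, plus strand) directs cartilage formation and stood at 5.57, 6.07 and 5.86 FPKM in Control and 6.12, 6.78 and 6.37 FPKM in TMAO. The TMAO libraries all lay above the Control libraries, by a narrow margin. The log2 fold change was 0.12 with a 95% interval of -0.03 to 0.27, and it did not pass (adjusted p = 0.486 by limma). The groups thus did not overlap for Sox9, Spp1 and Ank, or 3 of 8 tested genes, 1 higher and 2 lower, where 18.7% of all genes tested had groups that did not overlap, 12.4% higher and 6.23% lower.

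Runx2 (chromosome 17, 44495987 to 44814797, minus strand), the master regulator of bone-forming cells, stood at 1.88, 2.13 and 1.95 FPKM in Control and 2.31, 1.77 and 1.67 FPKM in TMAO. TMAO 1 was the highest of the 6 libraries and TMAO 3 the lowest. The log2 fold change was -0.04 with a 95% interval of -0.25 to 0.18 (adjusted p = 0.909 by limma), and its sign changed without TMAO replicate 3 (0.02). The spread in TMAO was 18.1% where counting error gave 6.09%.

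Msx2 (chromosome 13, 53466884 to 53473074, minus strand), a homeobox factor of skull and vascular mineralization, was not tested. It stood at 0.406, 0.445 and 0.272 FPKM in Control and 0.480, 0.210 and 0.305 FPKM in TMAO, from 11 to 26 reads per library. TMAO 1 was again the highest library and TMAO 2 the lowest. With no filter applied the log2 fold change was -0.05 (adjusted p = 0.875 by limma). The mean FPKM of Msx2 was 11.4% lower in TMAO, and adding 1 FPKM before the logarithm makes the fold change smaller.

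Tnfrsf11b (chromosome 15, 54250619 to 54278484, minus strand) encodes osteoprotegerin, the soluble decoy receptor that captures RANKL. It stood at 2.39, 2.52 and 2.24 FPKM in Control and 2.38, 2.27 and 2.46 FPKM in TMAO. The groups overlapped over nearly their whole range. The log2 fold change was -0.0040 with a 95% interval of -0.17 to 0.16 (adjusted p = 0.988 by limma), and the sign changed without Control replicate 2 (0.03).

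**Figure D3:**
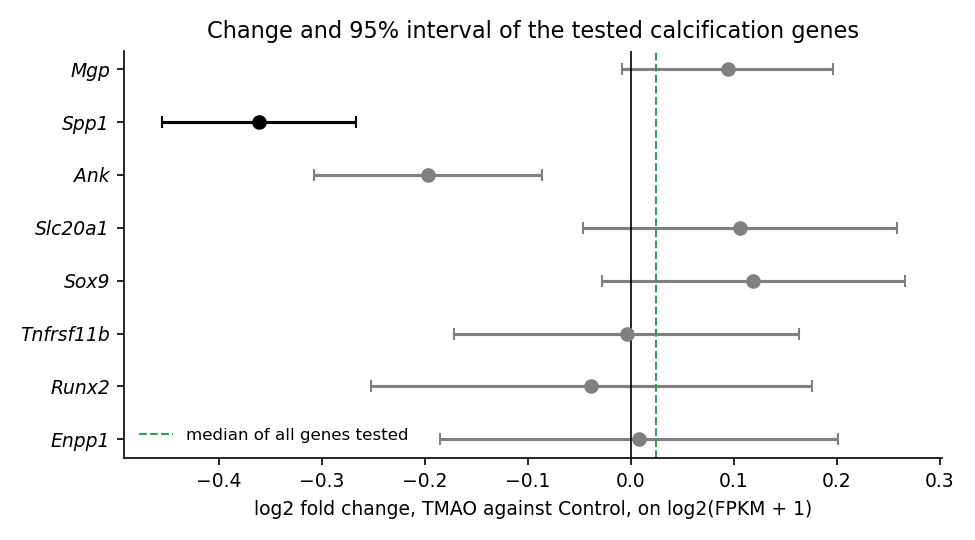
Log2 fold change of the 8 tested calcification genes, TMAO against Control, on the scale of log2(FPKM + 1). Bars are 95% intervals from limma, black marks the gene that passed and grey those that did not, and the dashed line is the median of all genes tested (0.02).

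The other genes of the pathway came from 9 lists holding 106 genes besides the 10, of which 101 were listed and 56 tested. Of the 56, 1, the integrin gene Itgb5, fell and 0 rose with limma, where 0.108% of all genes tested fell and 0.0723% rose. At an unadjusted p under 0.05, 7 were lower and 4 higher, against 4.48% and 8.61% of all genes tested. The lists were chosen with earlier results of these data known, so these counts, and those of each list below, are no test against those shares. The median log2 fold change of the 56 was -0.03, beside 0.02 for all genes tested.

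Itgb5 belongs to the osteopontin receptors. It encodes the beta subunit of integrin alpha v beta 5, which binds the arginine-glycine-aspartate motif of osteopontin and vitronectin. It stood at 37.8, 43.4 and 40.2 FPKM in Control and 32.2, 30.5 and 32.0 FPKM in TMAO. The TMAO libraries all lay lower, and the log2 fold change was -0.35 with a 95% interval of -0.47 to -0.22 (adjusted p = 0.0487 by limma). In 11 of 14 alternatives it did not pass, with adjusted p-values from 0.00524 to 0.321 over all of them, while its log2 fold change stayed between -0.39 and -0.30. Of the 6 tested receptor genes, 1 passed. Their median log2 fold change was -0.03. The partner subunit Itgav (-0.07) and the hyaluronan and osteopontin receptor Cd44 (0.08) had adjusted limma p-values of 0.778 and 0.537.

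In the phosphate and pyrophosphate list 0 of 7 tested genes passed with limma, 0 had an unadjusted p under 0.05, and voom on recovered reads also called 0. The median log2 fold change was -0.0028. The phosphate importer Slc20a2 had a log2 fold change of -0.09, the nucleoside transporter Slc29a1 -0.03 and the phosphate exporter Xpr1 -0.04. Nt5e, which turns AMP into adenosine, was not tested, with means of 0.0720 and 0.0560 FPKM in Control and TMAO.

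The secreted inhibitors and the enzymes that modify them had 0 of 9 tested genes past the threshold with limma and 0 with voom, with 2 lower at an unadjusted p under 0.05. Their median log2 fold change was -0.04. Ahsg, the fetuin-A gene, stood at 1.88, 2.08 and 1.98 FPKM in Control and 1.57, 1.57 and 1.58 FPKM in TMAO, a log2 fold change of -0.21 (adjusted p = 0.279 by limma). The values of Ahsg rested on 52 to 73 reads per library, with counting error of 12.1% of the mean in Control and 13.5% in TMAO. Its mean fell by 20.6%, more than that fold change implies, because 1 FPKM was added to each value before the logarithm. Gas6, a vitamin K-dependent ligand of the receptor Axl, had -0.11 and the BMP-binding protein gene Bmper -0.14. Vkorc1, the vitamin K reductase needed to carboxylate matrix Gla protein, was listed with 0 to 2 reads per library. Exons of Gm21974 on the same strand cover 47.7% of its exon bases, so its level is uncertain.

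Among proteases known to cleave osteopontin, 0 of 3 tested genes passed with limma and 0 with voom, with 1 lower and 1 higher at an unadjusted p under 0.05. The median log2 fold change was -0.08. The collagen-degrading protease Ctsk stood at 113, 111 and 114 FPKM in Control and 123, 123 and 129 FPKM in TMAO (log2 fold change 0.15, adjusted p = 0.164 by limma), and all TMAO libraries were higher. The stromelysin gene Mmp3 had -0.10 and the gelatinase gene Mmp2 -0.08.

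Transcription factors of bone and cartilage outside the 10 were mostly low, with 10 of 15 not tested. None of the 5 tested passed with limma or voom, and 1 was higher at an unadjusted p under 0.05. Their median log2 fold change was -0.01. The stress-responsive factor Atf4 had a log2 fold change of 0.10 (adjusted p = 0.353 by limma), Twist1 one of -0.16 and Runx1 one of 0.07. Sp7, the osteoblast factor osterix, had means of 0.0130 and 0.0059 FPKM in Control and TMAO.

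In the RANKL and osteoprotegerin list 0 of 3 tested genes passed with limma, 0 had an unadjusted p under 0.05 and voom called 0, with a median log2 fold change of 0.08. Traf6 had a log2 fold change of 0.12, Nfatc1 one of 0.08 and the macrophage growth factor gene Csf1 one of -0.07. The RANKL gene Tnfsf11 and its receptor gene Tnfrsf11a were below 0.1 FPKM on average in both groups (0.0563 and 0.0560 FPKM for Tnfsf11, 0.0602 and 0.0317 FPKM for Tnfrsf11a).

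Of the 15 tested BMP and Wnt genes 0 passed with limma and 0 with voom, and 2 were higher at an unadjusted p under 0.05. The list median of the log2 fold change was -0.01. The 2 genes belong to the inhibitors of DNA binding that BMP receptors induce. Id1 stood at 42.3, 45.4 and 44.9 FPKM in Control and 50.1, 50.7 and 48.4 FPKM in TMAO (log2 fold change 0.17, adjusted p = 0.180 by limma), and Id3 had a log2 fold change of 0.15 (adjusted p = 0.230 by limma). Id2, next by p, had 0.11 (adjusted p = 0.524 by limma). Bmp2 stood at 0.222 and 0.232 FPKM and was not tested.

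Of 6 tested genes of bone and cartilage matrix, limma called 0. At an unadjusted p under 0.05, 3 were lower, beside 4.48% of all genes tested. The median log2 fold change of the 6 was -0.14. Ogn, a small leucine-rich proteoglycan also called osteoglycin, stood at 13.8, 13.0 and 13.0 FPKM in Control and 11.1, 9.89 and 10.2 FPKM in TMAO. Every TMAO library was lower, with a log2 fold change of -0.32 (adjusted p = 0.0798 by limma), and voom on recovered reads and median-ratio size factors called it. Col1a1 and Col1a2, the chains of type I collagen, had -0.18 and -0.20 (limma, adjusted p = 0.306 and 0.318). The osteocalcin gene Bglap had means of 0.136 and 0.0653 FPKM in Control and TMAO, and 10 of the 16 listed genes were not tested.

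Spp1 lies in a cluster of genes for acidic bone and tooth proteins on chromosome 5. Its relatives there, Dspp, Dmp1 and Mepe, had means of at most 0.0533 FPKM in either group. Its neighbours Pkd2, a calcium channel gene, and Sparcl1, a matrix glycoprotein gene, were tested, and neither passed (log2 fold changes -0.12 and 0.11 by limma, adjusted p = 0.501 and 0.699).

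**Figure D4:**
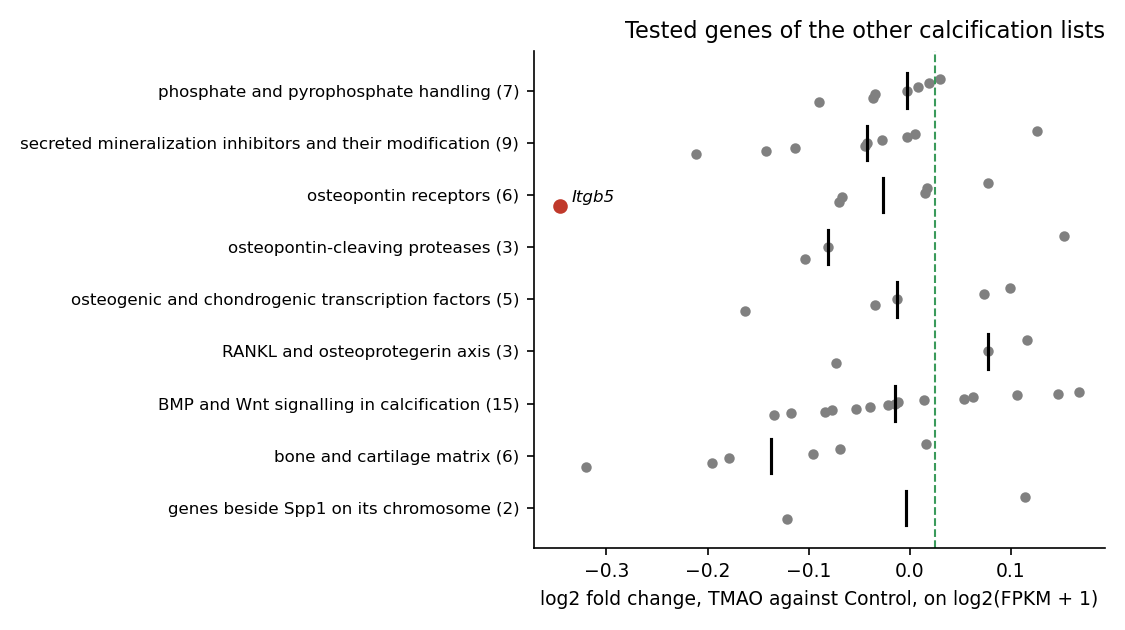
Log2 fold change of each tested gene in the 9 other calcification lists, TMAO against Control, with the number tested in brackets. Black strokes are list medians, the dashed line is the median of all genes tested (0.02), and the red point is Itgb5, the one gene of these lists that passed.

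The genes whose profile over the 6 libraries was nearest to that of Spp1 were Emcn, Spc25, Glipr1, Nuf2 and Nusap1, out of 3746 tested genes with a mean of at least 10 FPKM. Likeness was the root-mean-square difference of log2(FPKM + 1) values centred on each gene's mean, which ranged from 0.0201 for Emcn to 0.0581 for Nusap1. Spp1 itself deviated from its own mean by 0.184 on the same scale. Emcn stood at 16.0, 15.0 and 16.4 FPKM in Control and 12.3, 12.2 and 12.6 FPKM in TMAO, with Control 2 the lowest Control library as for Spp1 (log2 fold change -0.33, adjusted p = 0.0504 by limma). Spc25 passed the test (log2 fold change -0.32, adjusted p = 0.0249 by limma). All of these genes were picked for likeness to Spp1 in the same libraries. Their lower levels in TMAO and small p-values follow from that choice and are no separate result. Among the calcification genes Ank was nearest to Spp1, at 0.107, rank 158 of all genes tested when Spp1 itself is counted as the first.

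The library totals that these FPKM values imply were 14991252 to 16806728 reads. They lie close to the reads recovered over genes (14982892 to 16824120), so they need not be the sequencing depth. Acta2, the smooth muscle actin, had means of 487 and 483 FPKM in Control and TMAO. Des, the desmin gene, stood at 0.935 to 1.27 FPKM in Control and 1.32 to 1.87 FPKM in TMAO (log2 fold change 0.26, adjusted p = 0.344 by limma). Myocd, the gene of the smooth muscle coactivator myocardin, was too low to be tested, at 0.602 to 0.674 FPKM in Control and 0.439 to 0.518 FPKM in TMAO. Neither gene's groups overlapped, where 18.7% of all genes tested had groups that did not overlap, 12.4% higher and 6.23% lower. The mean was higher in TMAO for 2 of the 8 smooth muscle markers and lower for 6. Their summed level was 494 to 499 FPKM in Control and 486 to 502 FPKM in TMAO. In all, 4 of the 8 smooth muscle markers were below 1 FPKM in all libraries, among them Myh11, Tagln and Cnn1, although exons on the opposite strand make Tagln uncertain. Of 7 listed osteoblast and osteocyte markers 6 were below 1 FPKM in all libraries, as were all 5 listed endothelial markers. Osteopontin is also abundant in macrophages, and the summed level of the 10 macrophage markers was 117, 112 and 128 FPKM in Control 1 to 3 and 106, 110 and 110 FPKM in the TMAO libraries, all of them lower. Most of it came from Lyz2 (76.9 and 70.0 FPKM in Control and TMAO) and Gpnmb (30.5 and 27.2 FPKM). The mean was lower in TMAO for 5 of the 10 and higher for the other 5, among them Mrc1 (0.267 and 0.331 FPKM), which was higher in every TMAO library, Trem2 (0.262 and 0.317 FPKM) and Cd68 (4.17 and 4.28 FPKM). Of the 10, 6 were below 1 FPKM in all libraries and the defining markers Ptprc and Itgam were at or below 0.0536 FPKM on average, although exons of Gm49368 on the same strand cover 68.7% of the exon bases of Itgam and leave its level uncertain. Summed fibroblast markers were 59.7 to 61.4 FPKM in Control and 56.7 to 59.8 FPKM in TMAO. The mean was higher in TMAO for 4 of the 7 fibroblast markers and lower for 3. Mitochondrial genes took 7.23% to 7.84% of the reads recovered over genes in Control and 6.36% to 6.65% in TMAO. Genes listed at 0 numbered 5973 to 6640 in Control and 5095 to 5590 in TMAO. The nuclear RNA Malat1 stood at 75.0 to 113 FPKM in Control and 153 to 218 FPKM in TMAO. The part of these differences in the fall of Spp1 was not tested.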

How the data were processed

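The authors deposited 1 table per library with FPKM values per gene (the Control 1 header spells the unit PKM). Per the submitters' processing notes, Trimmomatic, HISAT2, Cufflinks, HTSeq and the build mm10 are named, with no versions or roles. Per the labels' protocols the libraries were stranded and poly(A)-selected. The annotation release is not given in the sources used here. GENCODE M21 exon lengths turned the deposited FPKM values of 98.5% of annotated genes into whole reads, to within 0.01 reads in all 6 libraries. The reads served for counting error and 1 alternative.

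Values were tested as log2(FPKM + 1) with limma 3.58.1 (trend, robust) in R 4.3.3, with Benjamini-Hochberg adjustment over 11062 genes; for low genes the pseudocount makes fold changes smaller than they are. The script was tested on simulated data. Within-group pairs differed by more than sampling noise in a chi-square test. Python 3.11.15 prepared the tables. The 14 alternatives were a pseudocount of 0.1, no filter, a filter of 0.5 FPKM, quantile normalization, median-ratio size factors, a variance fit without robust weights, the replicate block, voom on recovered reads, and each library left out.

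The 10 genes and the lists were chosen with earlier results of these data known. Named genes of other lists were those past the threshold, otherwise the 3 with the smallest p, and genes at low level; the 5 nearest to Spp1 had a mean of at least 10 FPKM and no predicted-gene symbol. Per-library values of Ctsk, Id1, Ogn and Ahsg and the markers Des, Myocd, Mrc1, Trem2 and Cd68 were chosen after they were seen, and Malat1 was added outside the lists.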

Additional observations from a re-analysis of the deposited data

How the results depend on the processing

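The log2 fold change of Spp1 was negative in all 14 alternatives. It passed in 12, with -0.26 under quantile normalization (adjusted p = 0.0439 by limma), and missed the threshold with no filter (-0.36) and without Control replicate 3; leaving out 1 library gave -0.39 to -0.34. The count of calcification genes past the threshold was therefore 1, and 0 with no filter, and 0 to 1 when a library was left out.

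All genes past the threshold numbered 20, and 0 with no filter, where the number with an unadjusted p under 0.05 is 1999, 90 with voom on recovered reads, and 11 (without Control replicate 3) to 58 (without TMAO replicate 2) when a library was left out, with 13 without TMAO replicate 1. The split of 8 higher and 12 lower became 38 and 52 with voom, 7 and 18 with quantile normalization, 9 and 18 with median-ratio size factors, 12 and 10 with the replicate block, and 44 and 14 without TMAO replicate 2.

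Genes of the other lists past the threshold numbered 1. They numbered 2 with median-ratio size factors and with voom (Itgb5 and Ogn), 0 with a pseudocount of 0.1, no filter, a filter of 0.5 FPKM, quantile normalization, the fit that is not robust and the replicate block, and 0 to 1 when a library was left out, 1 only without Control replicate 1.

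Changes of sign occurred in genes near 0: Enpp1 had -0.0487 with quantile normalization, -0.0088 with median-ratio size factors and -0.0374 to 0.0632 when a library was left out; Runx2 had -0.133 to 0.0233 and Tnfrsf11b -0.0349 to 0.0254 when a library was left out. The cause of these differences was not tested. Mgp, Ank, Sox9 and Slc20a1 kept their sign and did not pass in any of the 14 alternatives.

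Nothing in the labels says that same-numbered libraries are pairs, so the numbers were not taken as pairs. Deviations of same-numbered libraries had correlations of -0.09, -0.10 and 0.06, and those of other-numbered libraries ran from -0.06 to 0.14. With 3 libraries per group these correlations cannot exclude pairing. With the replicate block Spp1 kept its call (adjusted p = 0.0410 by limma) and 22 genes passed in all.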

Other observations

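A further entry at the Spp1 locus lay on the other side of Control than Spp1 did. The entry Gm42793 (ENSMUSG00000105954, chromosome 5, 104435121 to 104436372, plus strand of mm10) lies inside Spp1 on the same strand, from beside its start, and shares 309 bases, or 18.8%, of the exon bases of Spp1. The rest of the entry lies in introns of Spp1, so its reads need not come from a separate transcript. Gm42793 held 5, 9 and 11 reads in Control 1 to 3 and 29, 20 and 16 reads in TMAO 1 to 3. All 3 TMAO libraries were above all Control libraries, while Spp1 lay lower in all 3. Summed over libraries and scaled to their totals, the ratio of TMAO to Control was 2.57, with a 95% interval of 1.60 to 4.25 (exact binomial, counting error only). It was picked after its values were seen and was not tested. How the counting split reads between both entries is not given in the sources used here.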
